A study of Mus musculus with 10 samples.

Results

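The genes examined here are 10 components of the machinery that takes a cell through G1 and into S phase, namely the D-type cyclins *Ccnd1*, *Ccnd2* and *Ccnd3*, the kinases *Cdk4*, *Cdk6* and *Cdk2*, the E-type cyclins *Ccne1* and *Ccne2*, the inhibitor *Cdkn1b* and the pocket protein *Rb1*. They were found by matching the gene identifiers of the deposited count table to these symbols, which gave 1 row for each of the 10 among 54232 genes, and all 10 passed the filter on low counts. RNA was sequenced from whole testes of 5 *Dis3* cKO and 5 control mice at postnatal day 4 (P4), with both testes of a mouse pooled for 1 library. The floxed *Dis3* line was made in B6D2F1 zygotes and was crossed with *Ddx4-Cre* mice. *Dis3* encodes a catalytic ribonuclease of the nuclear RNA exosome. *Dis3* cKO mice were *Dis3* F/-; *Ddx4-Cre*, in which Cre is active in male germ cells, so that their somatic cells keep 1 floxed and 1 deleted allele, and control mice, labelled *Dis3* WT, were siblings from the same litters. A whole testis at this age holds germ cells together with Sertoli, Leydig, myoid, stromal, endothelial and blood-derived cells, and in bulk RNA fewer cells of a type and less RNA per cell cannot be told apart.

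In G1, mitogens induce D-type cyclins, which bind CDK4 or CDK6 and start the phosphorylation of RB1. Phosphorylated RB1 releases E2F factors, which transcribe *Ccne1*, *Ccne2* and genes of DNA replication, and cyclin E with CDK2 completes the phosphorylation and starts S phase. The product of *Cdkn1b*, p27, binds and inhibits cyclin E-CDK2 and also takes part in the assembly of cyclin D-CDK4 complexes. In the mouse testis, D-type cyclins are used by spermatogonia and by Sertoli cells, which still divide in the first weeks of life and leave the cycle with a rise in p27.

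The libraries held 28538849 to 37739906 gene counts in *Dis3* cKO and 35391042 to 41104912 in control. *Dis3* itself had 1362 to 1709 normalized counts in the *Dis3* cKO libraries and 4115 to 5161 in the control libraries, so the libraries followed their labels. Its reads were counted over all exons together, so the deleted exons were not seen apart. Among 20043 genes tested with edgeR's quasi-likelihood test, 885 (4.42%) were called higher and 698 (3.48%) lower in *Dis3* cKO at an adjusted p under 0.05 (Benjamini-Hochberg over all genes tested), and the median log2 fold change was -0.01. Replicates 1 to 3 and replicates 4 and 5 of both genotypes formed separate clusters, a division that the labels do not name and that was made from the data, so log2 fold changes within each cluster are given beside the results. Summed germ cell markers (10 genes, among them *Ddx4*, *Dazl* and *Zbtb16*) reached 15901 to 21344 normalized counts in *Dis3* cKO libraries and 22887 to 27823 in control libraries. Of these markers 3 of 10, *Dazl*, *Stra8* and *Mael*, were called lower and none higher, and 9 of 10 lay below 0. The median log2 fold change was -0.27 in all libraries, -0.09 in replicates 1 to 3 and -0.75 in replicates 4 and 5. *Ddx4* and *Zbtb16* were not called in all libraries together (edgeR adjusted p = 0.323 and 0.472), but their values differed between the clusters. Their log2 fold changes were -0.84 and -0.69 in replicates 4 and 5, and 0.16 and -0.01 in replicates 1 to 3. The interaction of genotype and cluster passed for both (edgeR adjusted p = 9.73e-05 and 0.000407), beside 4.58% of all genes tested. The largest differences in mean count were those of *Dazl* (5266 in *Dis3* cKO, 8398 in control) and *Mael* (3112 in *Dis3* cKO, 5269 in control). Sertoli markers summed to 159333 to 218052 in *Dis3* cKO and to 165323 to 188597 in control, and 0 of 8 were called by edgeR (2 higher and 0 lower at an unadjusted p under 0.05). Among the other markers, 1 of 5 myoid and 1 of 5 endothelial genes were called higher and 1 of 6 Leydig genes was called lower. None of 6 stromal and none of 5 macrophage genes was called by edgeR (3 stromal and 2 macrophage genes higher, 0 lower, at an unadjusted p under 0.05). The summed levels of these 5 lists overlapped between *Dis3* cKO and control libraries. In replicates 4 and 5 the median log2 fold change was 0.56 for myoid, 0.43 for stromal, 0.39 for endothelial and 0.37 for macrophage markers, against -0.24 for myoid, -0.08 for stromal, -0.09 for endothelial and -0.01 for macrophage markers in replicates 1 to 3. For Sertoli markers it was 0.01 in replicates 4 and 5 and 0.21 in replicates 1 to 3, and for Leydig markers -0.05 in replicates 4 and 5 and -0.08 in replicates 1 to 3. No marker was at 0 in every library.

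Of the 10 G1 genes, *Ccne2* and *Cdk4* were lower in *Dis3* cKO testes, none was called higher, and 8 passed in neither direction. The background was 3.48% of all genes tested called lower and 4.42% called higher. At an unadjusted p under 0.05, 4 members were lower (12.1% of all genes tested) and 1 was higher (11.8% of all genes tested). DESeq2 called the same 2 genes lower and none higher, against 4.43% of all genes called lower and 6.22% called higher by that tool. The median log2 fold change of the 10 members was -0.12, with a range of -0.34 to 0.22, and 6 of the 10 lay below 0. Mean levels in *Dis3* cKO ran from 79.0% of control for *Ccne2* to 116% of control for *Cdk6*.

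The regions just upstream of 3 of these genes are shown first, because reads from the opposite strand there are described further on and were called higher before *Cdk4* and *Ccne1* but were not called before *Cdkn1b*. Each is the stretch of 250 bases before the gene's start in RefSeq (GRCm38.p6), printed from 5′ to 3′ on the strand of the gene. Capitals mark the letters GGGCGG (a GC box, the site of SP1-type factors) and CACGTG (an E box, a site of MYC-MAX and of other helix-loop-helix factors), each searched on both strands. The windows are chr10:127063285-127063534 on the plus strand for *Cdk4*, chr7:38107491-38107740 on the minus strand for *Ccne1* and chr6:134920151-134920400 on the plus strand for *Cdkn1b*.
Cdk4: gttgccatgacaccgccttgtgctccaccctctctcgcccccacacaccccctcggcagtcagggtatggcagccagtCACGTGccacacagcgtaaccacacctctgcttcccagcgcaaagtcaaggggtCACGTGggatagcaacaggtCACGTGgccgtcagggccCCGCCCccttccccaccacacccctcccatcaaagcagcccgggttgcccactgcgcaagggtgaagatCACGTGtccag
Ccne1: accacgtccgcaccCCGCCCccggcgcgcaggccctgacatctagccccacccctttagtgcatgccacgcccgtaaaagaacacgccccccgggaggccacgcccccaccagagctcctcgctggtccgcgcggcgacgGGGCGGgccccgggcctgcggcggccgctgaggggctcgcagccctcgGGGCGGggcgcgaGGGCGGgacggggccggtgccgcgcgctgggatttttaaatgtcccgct
Cdkn1b: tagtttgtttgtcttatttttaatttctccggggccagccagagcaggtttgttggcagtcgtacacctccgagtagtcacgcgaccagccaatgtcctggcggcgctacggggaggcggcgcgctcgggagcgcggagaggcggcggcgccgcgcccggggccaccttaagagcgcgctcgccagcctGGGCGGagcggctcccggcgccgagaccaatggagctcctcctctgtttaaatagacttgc

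The *Cdk4* window held 4 E boxes and 1 GC box, whereas an E box was found in 6.02% and a GC box in 32.7% of 32851 windows of this length in the same table. The *Ccne1* window held 4 GC boxes, no E box, 34 CpG and 76% G and C, against a median of 6 CpG and 52.4% G and C over all windows. The *Cdkn1b* window had 1 GC box, 2 CCAAT boxes (33.8% of windows have at least 1) and 28 CpG. None of the 3 held an E2F site written as TTTCCCGC, TTTCGCGC, TTTGCCGC or TTTGGCGC (1.86% of windows on either strand) or the letters TATAAA (12.4%). RefSeq promoters were matched for 6 of the 10 genes, and those of *Ccnd1*, *Ccnd2*, *Ccne2* and *Rb1* were not among them. Of the matched windows not printed, that of *Cdk2* held 1 such E2F site, and that of *Cdk6* held 1 E box and 1 TATAAA. Those of *Ccnd3* held no E2F site, E box or TATAAA. Matches of letters are descriptions of sequence and not measured binding sites.

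*Ccnd1* (ENSMUSG00000070348.5, chromosome 7 from 144929931 to 144939925, minus strand, GRCm38) encodes cyclin D1, whose protein the study also examined in these mice and which is not analysed here. Its normalized count was 1218, 1247, 1538, 1223 and 1288 in *Dis3* cKO replicates 1 to 5 and 1186, 1215, 1303, 1340 and 1436 in control replicates 1 to 5. The groups overlapped, and *Dis3* cKO replicate 3 stood above every other library. Its log2 fold change was 0.01 (SE 0.08, 95% interval -0.17 to 0.19, edgeR adjusted p = 0.970). In replicates 1 to 3 it was 0.11 and in replicates 4 and 5 it was -0.14, and without *Dis3* cKO replicate 3 it was -0.06, so its sign depended on the libraries included. No difference in *Ccnd1* RNA was detectable at this depth, and a change of the size seen for *Ccne2* lay outside the interval.

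*Ccnd2* (ENSMUSG00000000184.12, chromosome 6 from 127125162 to 127152193, minus strand) encodes cyclin D2, which is known for its roles in ovarian granulosa cells and in the proliferation of testicular cells. It had 28225, 30886, 31237, 26817 and 26923 normalized counts in *Dis3* cKO and 26391, 26996, 27913, 23509 and 23846 in control testes. In each cluster every *Dis3* cKO library lay above every control library, but the groups overlapped as a whole because replicates 4 and 5 were low in both genotypes. The share of all genes with such separation in both clusters was not counted, here or for *Cdk4*, *Cdk6* and the *Cdk4* share below. With so few libraries in a cluster, separation can arise by chance, so it is given as a description only. The mean was 28817 ± 2126 in *Dis3* cKO and 25731 ± 1955 in control (SD, n = 5 each), which gave a log2 fold change of 0.16 (SE 0.07) that did not pass the threshold (edgeR adjusted p = 0.193). The log2 fold change was 0.15 in replicates 1 to 3 and 0.19 in replicates 4 and 5, and in replicates 4 and 5 alone it passed (edgeR adjusted p = 0.0111), as it did with the cluster as a term (adjusted p = 0.0330).

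*Ccnd3* (ENSMUSG00000034165.16, chromosome 17 from 47505051 to 47599691, plus strand) encodes cyclin D3. The *Dis3* cKO libraries held 1402, 2064, 2307, 1821 and 2249 normalized counts and the control libraries 2068, 2092, 2276, 2066 and 2145. The *Dis3* cKO libraries spread on both sides of the narrow control range, with replicate 1 the lowest, and the SD was 369 in *Dis3* cKO and 88.0 in control. A log2 fold change of -0.11 (95% interval -0.35 to 0.12) was within that spread (edgeR adjusted p = 0.591). It was -0.16 in replicates 1 to 3 and -0.04 in replicates 4 and 5. It was -0.013 without *Dis3* cKO replicate 1 and -0.18 without *Dis3* cKO replicate 3.

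*Cdk4* (ENSMUSG00000006728.12, chromosome 10 from 127063534 to 127067920, plus strand) encodes the main kinase partner of the D-type cyclins and fell in *Dis3* cKO testes. Its normalized counts were 4214, 4817, 5028, 4568 and 5286 in *Dis3* cKO and 5555, 5892, 5254, 6285 and 5887 in control. All *Dis3* cKO libraries but replicate 5 lay below every control library, control replicate 3 was the only control library under *Dis3* cKO replicate 5, and in each cluster the genotypes were apart. The mean was 4783 ± 414 in *Dis3* cKO and 5775 ± 389 in control (SD, n = 5 each), so that *Dis3* cKO testes had 82.8% of the control mean. The log2 fold change was -0.27 (SE 0.07, 95% interval -0.43 to -0.11, edgeR adjusted p = 0.0373). In replicates 1 to 3 it was -0.25 and did not pass (edgeR adjusted p = 0.0844), and in replicates 4 and 5 it was -0.30 (adjusted p = 0.00406). Leaving out 1 library at a time kept the log2 fold change between -0.31 and -0.23, but the call held in 2 of 10 such fits, without *Dis3* cKO replicate 5 and without control replicate 3.

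*Cdk6* (ENSMUSG00000040274.11, chromosome 5 from 3341485 to 3531008, plus strand) encodes the alternative partner of the D-type cyclins. Its normalized counts were 2907, 2960, 3034, 2447 and 2289 in *Dis3* cKO and 2641, 2510, 2705, 2024 and 1864 in control. As with *Ccnd2*, *Dis3* cKO libraries lay above control libraries in each cluster, replicates 4 and 5 were low in both genotypes, and the groups overlapped as a whole. The mean was 2727 ± 336 in *Dis3* cKO and 2349 ± 380 in control (SD, n = 5 each), and the log2 fold change of 0.22 (95% interval -0.03 to 0.46) did not pass (edgeR adjusted p = 0.269). It was 0.18 in replicates 1 to 3 and 0.29 in replicates 4 and 5 (edgeR adjusted p = 0.0103), and with the cluster as a term the gene was called higher (adjusted p = 0.0100).

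*Ccne2* (ENSMUSG00000028212.16, chromosome 4 from 11191351 to 11204779, plus strand) encodes cyclin E2, an E2F target that activates CDK2 at the start of S phase, and showed the largest difference of the 10. The *Dis3* cKO libraries had 1052, 906, 867, 926 and 946 normalized counts and the control libraries 1170, 1119, 1038, 1350 and 1269. Only *Dis3* cKO replicate 1 reached the control range, where it lay just above control replicate 3. The mean was 939 ± 69.4 in *Dis3* cKO and 1189 ± 123 in control (SD, n = 5 each), or 79.0% of control, and the log2 fold change was -0.34 (SE 0.09, 95% interval -0.52 to -0.16, edgeR adjusted p = 0.0270). In replicates 1 to 3 it was -0.24 (edgeR adjusted p = 0.151) and in replicates 4 and 5 it was -0.48 (adjusted p = 0.000850). Leaving out 1 library at a time kept it between -0.38 and -0.29, and the call held in 4 of 10 such fits. It was lost without *Dis3* cKO replicate 2, 3 or 5 or without control replicate 1, 4 or 5, with adjusted p-values of at most 0.0687 from edgeR.

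*Ccne1* (ENSMUSG00000002068.16, chromosome 7 from 38097984 to 38107534, minus strand) encodes cyclin E1. Its normalized counts were 400, 387, 354, 404 and 394 in *Dis3* cKO and 524, 523, 446, 379 and 481 in control. All control libraries except replicate 4 lay above every *Dis3* cKO library, and control replicate 4 fell inside the *Dis3* cKO range. On the log2 scale the fold change was -0.28 (SE 0.10, 95% interval -0.50 to -0.06) with an unadjusted p of 0.0174 and an adjusted p of 0.115 from edgeR, so *Ccne1* was not called. It was -0.39 in replicates 1 to 3 and -0.10 in replicates 4 and 5.

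*Cdk2* (ENSMUSG00000025358.16, chromosome 10 from 128697939 to 128705031, minus strand) encodes the kinase that the E-type cyclins activate. It averaged 1967 ± 210 normalized counts in *Dis3* cKO and 2163 ± 220 in control (SD, n = 5 each), with ranges of 1709 to 2242 in *Dis3* cKO and 1862 to 2423 in control that overlapped for most libraries. Its log2 fold change was -0.14 in all libraries (95% interval -0.33 to 0.05, edgeR adjusted p = 0.386), -0.14 in replicates 1 to 3 and -0.13 in replicates 4 and 5.

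*Cdkn1b* (ENSMUSG00000003031.14, chromosome 6 from 134920401 to 134925513, plus strand) encodes p27 and was the only member whose groups did not overlap. The *Dis3* cKO libraries had 1945, 1926, 1980, 1977 and 2037 normalized counts and the control libraries 2295, 2242, 2248, 2240 and 2121. Every *Dis3* cKO library was below every control library, as was found for 4.31% of all genes tested, while no member had all *Dis3* cKO libraries above control (4.59% of all genes tested). The spread was small, with means of 1973 ± 42.4 in *Dis3* cKO and 2229 ± 64.8 in control (SD, n = 5 each), or 88.5% of control. On the log2 scale the fold change was -0.18 (SE 0.06, 95% interval -0.29 to -0.06), with an unadjusted p of 0.00657 and an adjusted p of 0.0666 from edgeR, and so was not called. With genes under 50 counts in most libraries removed it was called (edgeR adjusted p = 0.0488), as it was with the cluster as a term (adjusted p = 0.0250).

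*Rb1* (ENSMUSG00000022105.6, chromosome 14 from 73183673 to 73325822, minus strand) encodes the substrate of these kinases. It averaged 1182 ± 91.2 normalized counts in *Dis3* cKO and 1147 ± 64.9 in control (SD, n = 5 each), with overlapping ranges of 1029 to 1254 in *Dis3* cKO and 1059 to 1241 in control. For *Rb1* the log2 fold change was 0.04 (95% interval -0.12 to 0.20, edgeR adjusted p = 0.785), with 0.13 in replicates 1 to 3 and -0.09 in replicates 4 and 5, so no difference was detectable and its sign changed with the libraries.

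**Figure D1:**
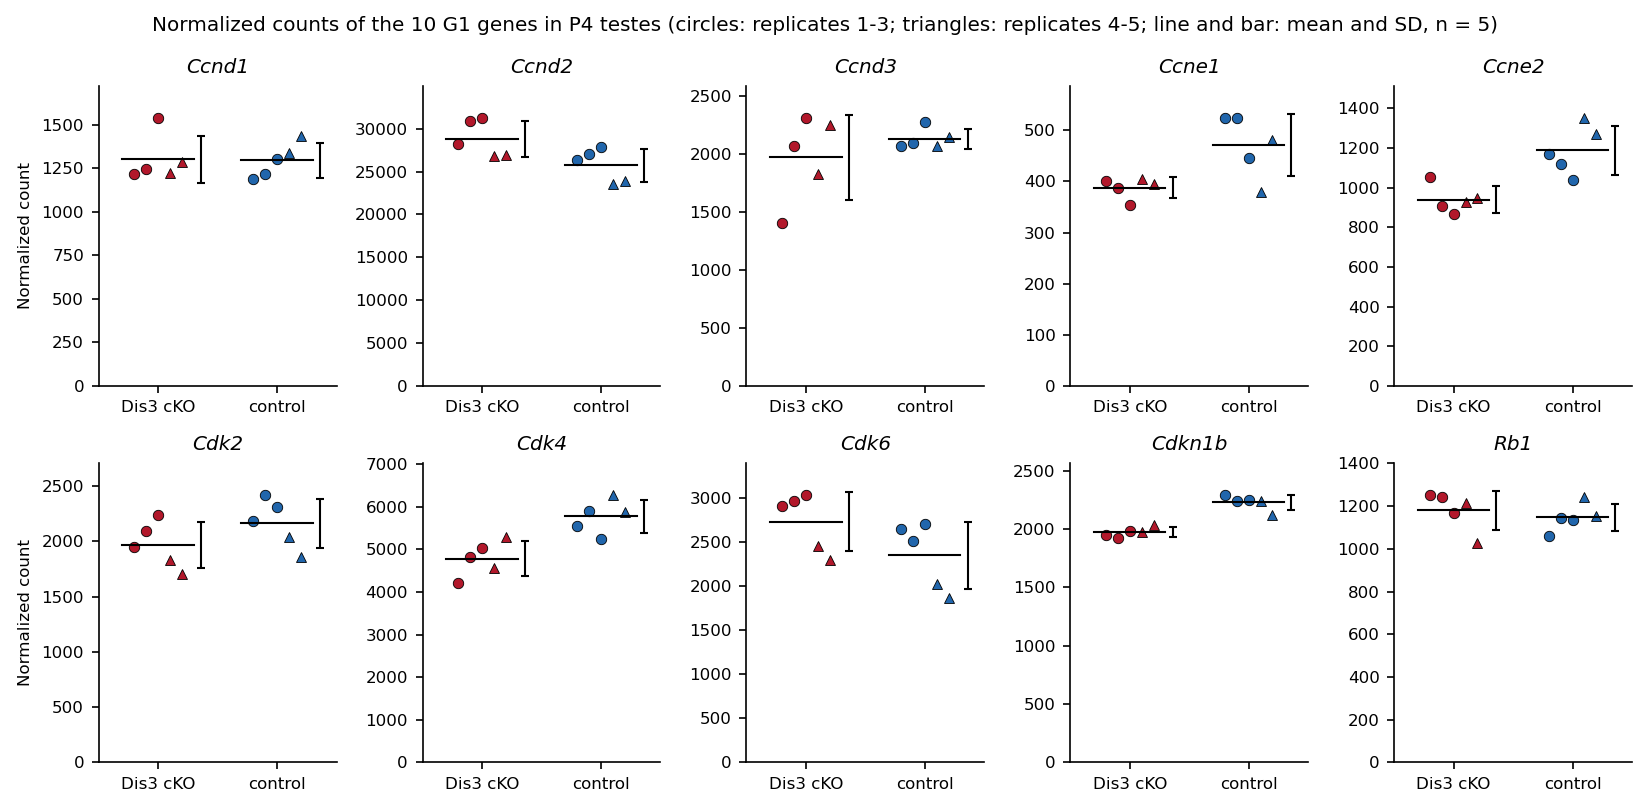
Normalized counts (vertical axes, from 0) of each of the 10 genes in the *Dis3* cKO (left, red) and control (right, blue) libraries, where replicates 1 to 3 are circles and replicates 4 and 5 are triangles, with horizontal lines for means and bars for the SD (n = 5). *Cdkn1b* is the only panel without overlap, with *Dis3* cKO libraries at 1926 to 2037 and control libraries at 2121 to 2295, and in the panels of *Ccnd2* and *Cdk6* the triangles lie low in both groups.

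The clusters were compared for all members together. In replicates 1 to 3 no member was called (4.80% of genes called higher and 2.74% lower in that fit), and in replicates 4 and 5 *Ccnd2* and *Cdk6* were called higher and *Ccne2* and *Cdk4* lower (11.7% of genes called higher and 11.7% lower in that fit). The difference between the clusters was tested as an interaction of genotype and cluster, and 0 of 10 members passed in edgeR, where 4.58% of all genes tested did. The log2 fold changes of *Ccnd1* and *Rb1* had opposite signs in the clusters, and those of the other 8 members had the same sign.

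**Figure D2:**
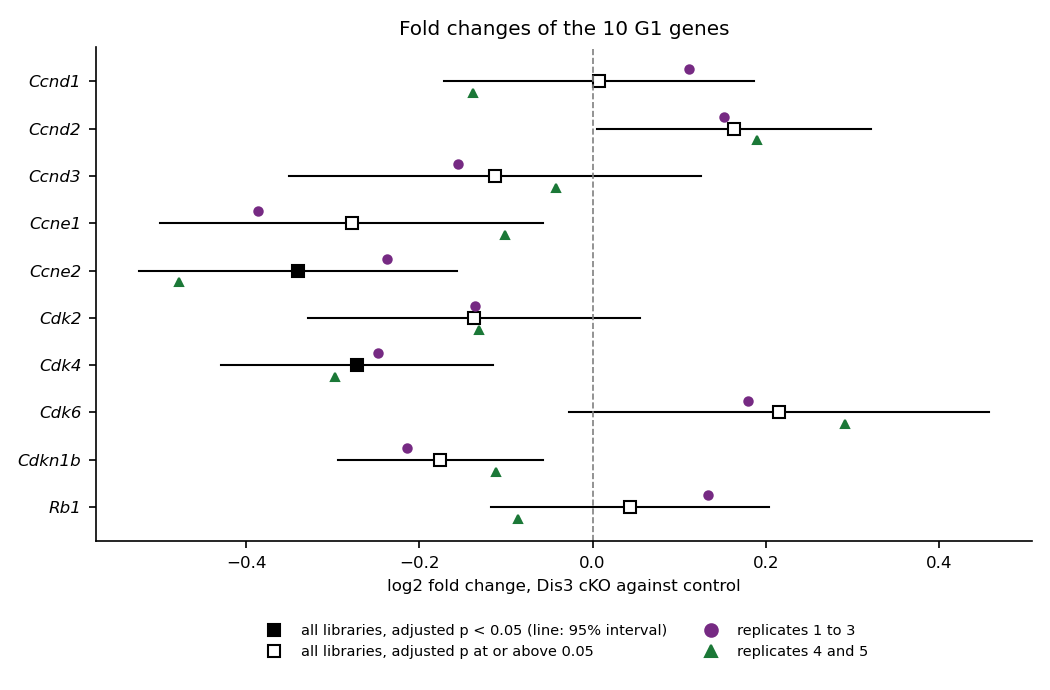
Log2 fold change of *Dis3* cKO against control (horizontal axis) for the 10 genes in all libraries (squares, with lines for 95% intervals, filled at an adjusted p under 0.05 from edgeR), in replicates 1 to 3 (circles) and in replicates 4 and 5 (triangles). The filled squares are *Ccne2* at -0.34 and *Cdk4* at -0.27, and circles and triangles lie on different sides of 0 for *Ccnd1* and *Rb1*.

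Levels were compared between genes only after division by exon length, as normalized counts per kb of exon. That length takes in all annotated exons of a gene together, so levels and shares between genes depend on the annotation. The SDs below do not include this. *Ccnd2* was the most abundant member with a level of 3063 ± 226 in *Dis3* cKO and 2735 ± 208 in control per kb (SD, n = 5 each), followed by *Cdk4* with 1472 ± 127 in *Dis3* cKO and 1777 ± 120 in control and by *Cdkn1b* with 433 ± 9.32 in *Dis3* cKO and 490 ± 14.2 in control. These 3 stood apart from one another and from the rest by more than their SDs. Levels in *Dis3* cKO were 316 ± 33.7 per kb for *Cdk2*, 277 ± 28.6 for *Ccnd1*, 269 ± 19.9 for *Ccne2* and 224 ± 42.0 for *Ccnd3*. Levels in control were 348 ± 35.5 per kb for *Cdk2*, 275 ± 21.3 for *Ccnd1*, 340 ± 35.2 for *Ccne2* and 243 ± 10.02 for *Ccnd3*. In *Dis3* cKO the neighbours in this run could not be separated from each other by their SDs, and in control *Ccne2* could not be separated from *Cdk2*. The lowest levels in *Dis3* cKO were 196 ± 15.2 per kb for *Rb1*, 195 ± 24.0 for *Cdk6* and, below these, 146 ± 7.45 for *Ccne1*. In control they were 191 ± 10.8 for *Rb1*, 168 ± 27.2 for *Cdk6* and 177 ± 22.8 for *Ccne1*, which could not be separated by their SDs.

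The share of each gene in its family does not depend on the normalization between libraries, and 5 such shares were compared with exact permutation tests. *Ccnd2* made up 86.0% ± 1.37 of length-scaled D-type cyclin RNA in *Dis3* cKO and 84.0% ± 1.44 in control, *Ccnd1* 7.76% ± 0.517 in *Dis3* cKO and 8.51% ± 1.07 in control, and *Ccnd3* 6.29% ± 1.05 in *Dis3* cKO and 7.47% ± 0.377 in control (SD, n = 5 each). None passed after adjustment over the 5 shares (two-sided exact permutation tests, adjusted p = 0.132 for *Ccnd2*, 0.308 for *Ccnd1* and 0.0992 for *Ccnd3*). In replicates 1 to 3 the differences were 1.44 points for *Ccnd2*, -0.099 for *Ccnd1* and -1.34 for *Ccnd3*, whereas in replicates 4 and 5 they were 2.67 points for *Ccnd2*, -1.71 for *Ccnd1* and -0.96 for *Ccnd3*. *Cdk4* made up 86.2%, 87.5%, 87.7%, 88.9% and 90.9% of *Cdk4* and *Cdk6* RNA in *Dis3* cKO replicates 1 to 5 and 90.1%, 91.0%, 89.3%, 93.0% and 93.1% in control replicates 1 to 5. In each cluster every *Dis3* cKO library had a lower share than every control library, although the groups overlapped as a whole. The difference of the mean shares was -3.07 percentage points, with -2.99 points in replicates 1 to 3 and -3.19 points in replicates 4 and 5, and the exact permutation test gave p = 0.0317 and an adjusted p of 0.0992. Without division by exon length, which gives the longer *Cdk6* more weight, the difference was -7.42 points with the same adjusted p. *Ccne1* made up 35.2% ± 1.20 of E-type cyclin RNA in *Dis3* cKO and 34.3% ± 4.48 in control (exact permutation test, adjusted p = 0.786), with differences of -2.31 points in replicates 1 to 3 and 5.82 points in replicates 4 and 5.

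**Figure D3:**
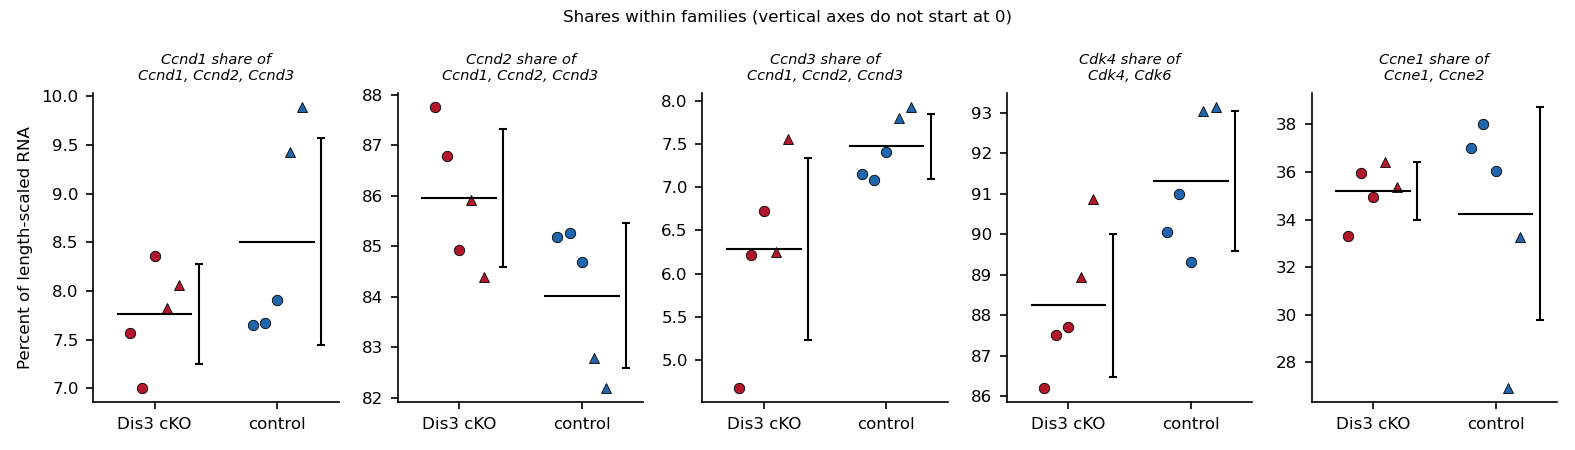
Share (percent, vertical axes that do not start at 0) of *Ccnd1*, *Ccnd2* and *Ccnd3* in D-type cyclin RNA, of *Cdk4* in *Cdk4* and *Cdk6* RNA and of *Ccne1* in E-type cyclin RNA, all scaled by exon length, in *Dis3* cKO (left, red) and control (right, blue) libraries with means and SDs (n = 5). The *Cdk4* share ran from 86.2% to 90.9% in *Dis3* cKO and from 89.3% to 93.1% in control, and no share passed the exact permutation test after adjustment.

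Promoter upstream transcripts (PROMPTs) are short-lived RNAs made upstream of active genes, often from the opposite strand, and are known substrates of the nuclear exosome. The deposited table counts reads opposite to the gene in the 3 kb before its start, and 7 of the 10 members had such a region, the exceptions being *Ccnd2*, *Ccnd3* and *Cdk2*. Counts were scaled by the gene counts of each library, and all 7 regions passed a mean of at least 3 counts. Of 12345 regions tested, 13.6% were called higher and 0.0486% lower in *Dis3* cKO, with a median log2 fold change of 0.64. Among the members 4 of 7 regions, those of *Ccnd1*, *Rb1*, *Cdk4* and *Ccne1*, were called higher and none lower. The shares of all regions, here and below, cover regions before genes of all types. All members are coding genes, the type for which the paper reported antisense PROMPT increases most often. When PROMPT counts were scaled by their own totals instead, the median over all regions was -0.07, 652 regions were called higher and 115 lower, and of the members *Ccnd1* and *Rb1* were called higher.

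The region before *Ccnd1* (chromosome 7 from 144939926 to 144942925) held 104, 68.4, 57.0, 82.0 and 110 normalized counts in *Dis3* cKO and 29.8, 18.9, 17.6, 1.92 and 16.5 in control. Every *Dis3* cKO library lay well above every control library, and the lowest value of all was that of control replicate 4. The log2 fold change was 2.30 (SE 0.33, edgeR adjusted p = 2.21e-10), or 1.61 with scaling by PROMPT counts (edgeR adjusted p = 6.50e-05). In whole testes, *Ccnd1* mRNA thus did not differ detectably between the genotypes. RNA from its upstream region was 4.97-fold higher in *Dis3* cKO with scaling by gene counts. The cell types that made either RNA were not told apart.

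The region before *Rb1* (chromosome 14 from 73325823 to 73328822) held 49.4, 44.6, 33.5, 18.8 and 29.4 normalized counts in *Dis3* cKO and 16.8, 6.60, 3.36, 0 and 14.7 in control. The groups did not overlap, and the log2 fold change was 2.07 (SE 0.45, edgeR adjusted p = 8.59e-05), or 1.37 with scaling by PROMPT counts (edgeR adjusted p = 0.0348). The mRNA of *Rb1*, like that of *Ccnd1*, showed no detectable difference.

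The region before *Cdk4* (chromosome 10 from 127060534 to 127063533), which holds 249 of the 250 bases of the *Cdk4* window printed above, had 12.3, 28.5, 11.2, 14.4 and 15.9 normalized counts in *Dis3* cKO and 0, 7.54, 5.88, 0 and 5.51 in control. The groups did not overlap, and *Dis3* cKO replicate 2 stood apart from the others of its group. The log2 fold change was 2.08 (SE 0.66, edgeR adjusted p = 0.0154), opposite in sign to that of the *Cdk4* mRNA. The call was lost without *Dis3* cKO replicate 2 (1.79, adjusted p = 0.151), without control replicate 1 (1.77) or 4 (1.78) and with scaling by PROMPT counts (1.41, edgeR adjusted p = 0.238). The region before *Ccne1* (chromosome 7 from 38107535 to 38110534) had 3.70, 10.4, 24.6, 6.65 and 1.13 normalized counts in *Dis3* cKO and 0.932, 2.83, 0, 0 and 0.919 in control. It holds 206 of the 250 bases of the *Ccne1* window printed above, whose last 44 bases lie inside the gene as counted here. The counts are between 0 and 22 reads per library, and the groups overlapped because *Dis3* cKO replicate 5 was as low as the control libraries. Its log2 fold change was 3.17 (95% interval 1.09 to 5.25, edgeR adjusted p = 0.0246), which was not called with the replicate number as a block (adjusted p = 0.130) or with scaling by PROMPT counts (adjusted p = 0.133) or with no filter on low counts (adjusted p = 0.0530). It was also not called without *Dis3* cKO replicate 2 or control replicate 3 or 4. Without *Dis3* cKO replicate 3 the region did not reach the minimum of 3 counts.

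The other 3 regions were not called. The region before *Ccne2* (chromosome 4 from 11188351 to 11191350) averaged 71.8 ± 14.4 normalized counts in *Dis3* cKO and 54.3 ± 9.30 in control (SD, n = 5 each), which gave a log2 fold change of 0.40 (95% interval -0.16 to 0.96, edgeR adjusted p = 0.491). The region before *Cdk6* (chromosome 5 from 3338485 to 3341484) had 8.64, 15.2 and 12.3 normalized counts in *Dis3* cKO replicates 1 to 3 and 0 in replicates 4 and 5, against 1.92 to 5.59 in control libraries (log2 fold change 0.97, edgeR adjusted p = 0.669). The region before *Cdkn1b* (chromosome 6 from 134917401 to 134920400), which holds the whole *Cdkn1b* window printed above, ranged from 4.94 to 16.6 in *Dis3* cKO and from 0 to 15.8 in control (log2 fold change 0.53, 95% interval -0.72 to 1.79, edgeR adjusted p = 0.771). Groups that did not overlap with *Dis3* cKO higher were thus found in 3 of 7 regions, against 11.1% of all regions tested, and none had *Dis3* cKO lower, against 0.0891%.

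**Figure D4:**
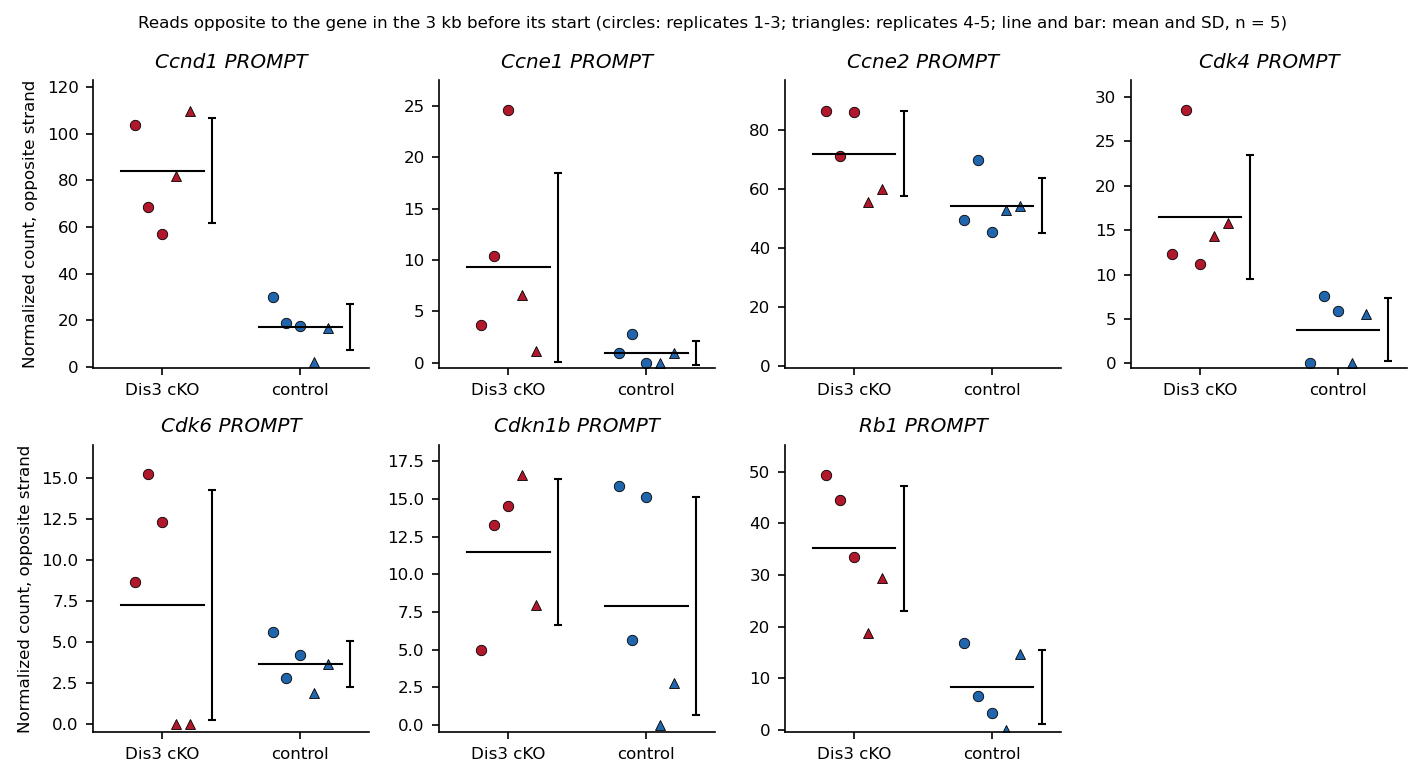
Normalized counts (vertical axes) of reads opposite to the gene in the 3 kb before the start of 7 members, in *Dis3* cKO (left, red) and control (right, blue) libraries, with means and SDs (n = 5). The *Ccnd1* region lies at 57.0 to 110 in *Dis3* cKO and at 1.92 to 29.8 in control, the groups are also apart for *Cdk4* and *Rb1*, and the counts of *Ccne1*, *Cdk4*, *Cdk6* and *Cdkn1b* are low.

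The rest of the G1 to S pathway was read from a list of 70 other genes, of which 68 were tested. In *Dis3* cKO 8 of the 68 were called lower and none higher (1 higher by DESeq2), beside 3.48% and 4.42% of all genes tested, and the unadjusted counts were 29 lower and 4 higher, beside 12.1% and 11.8% of all genes tested. Over the list, the log2 fold change had a median of -0.15, against -0.01 for all genes tested, and it was -0.08 in replicates 1 to 3 and -0.23 in replicates 4 and 5. The number called lower was 3 in replicates 1 to 3, where 2.74% of all genes were called lower, and 33 in replicates 4 and 5, where 11.7% of all genes were. Markers of germ cells (median -0.75 in replicates 4 and 5 and -0.09 in replicates 1 to 3) and, in the other direction, those of myoid, stromal, endothelial and macrophage cells also differed in value between the clusters, as given above. Their part in these values was not tested.

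By role, 1 of 6 other CDK inhibitors, 0 of 2 other pocket proteins, 0 of 10 E2F and DP factors, 1 of 5 genes of CDK activation, 2 of 11 genes of cyclin and inhibitor turnover, 1 of 4 S and M phase cyclins and kinases, 0 of 10 mitogen and transcription inputs and 3 of 20 E2F target genes were called lower. *Cdkn2a*, which encodes the CDK4 and CDK6 inhibitor p16 and, from another reading frame, ARF, had 214, 259, 276, 187 and 166 normalized counts in *Dis3* cKO and 318, 310, 438, 381 and 353 in control. The groups did not overlap, and the log2 fold change was -0.71 (SE 0.15, edgeR adjusted p = 0.0132). *Ccnh*, the cyclin of the CDK-activating kinase, had 1029, 982, 955, 1096 and 901 normalized counts in *Dis3* cKO and 1385, 1320, 1176, 1548 and 1463 in control. These groups were also apart, with a log2 fold change of -0.47 (SE 0.09, edgeR adjusted p = 0.00532).

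*Skp1* and *Rbx1*, which encode subunits of the SCF ubiquitin ligase that degrades cyclin E and p27, had log2 fold changes of -0.34 (edgeR adjusted p = 0.0442) and -0.32 (adjusted p = 0.0326), and their groups overlapped. *Ccnb1*, the mitotic cyclin B1, had 771 ± 35.0 normalized counts in *Dis3* cKO and 992 ± 84.3 in control (SD, n = 5 each, log2 fold change -0.36, edgeR adjusted p = 0.0131), with no overlap of the groups.

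The E2F targets called lower were *Orc1*, a subunit of the origin recognition complex, *Cdc45*, a part of the replicative helicase, and *Tyms*, thymidylate synthase, each without overlap of the groups. *Cdc45* had 1000 ± 66.3 normalized counts in *Dis3* cKO and 1259 ± 63.6 in control (SD, n = 5 each, log2 fold change -0.33, edgeR adjusted p = 0.0134). *Tyms* had 2202 ± 194 in *Dis3* cKO and 2603 ± 103 in control (log2 fold change -0.24, edgeR adjusted p = 0.0496). *Orc1* had 447, 454, 486, 311 and 367 normalized counts in *Dis3* cKO and 559, 561, 559, 655 and 639 in control, a log2 fold change of -0.52 (SE 0.12, edgeR adjusted p = 0.0176). The *Dis3* cKO replicates 4 and 5 were the lowest libraries and the control replicates 4 and 5 the highest.

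The interaction of genotype and cluster passed for 4 of the 68 tested genes of the list, near the 4.58% of all genes tested. These were *Orc1* and, named here after their values were seen, *E2f1*, *Ccna2* and *Mcm4*. *E2f1*, which encodes a transcription factor that RB1 holds back, had a log2 fold change of 0.18 in replicates 1 to 3 and -0.30 in replicates 4 and 5 (interaction edgeR adjusted p = 0.0124). For *Ccna2*, the cyclin A partner of CDK2 in S phase, the values were -0.02 in replicates 1 to 3 and -0.38 in replicates 4 and 5 (interaction adjusted p = 0.0292), for *Mcm4*, a helicase subunit, 0.03 and -0.35 (0.0192), and for *Orc1* -0.28 and -0.92 (0.0192).

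**Figure D5:**
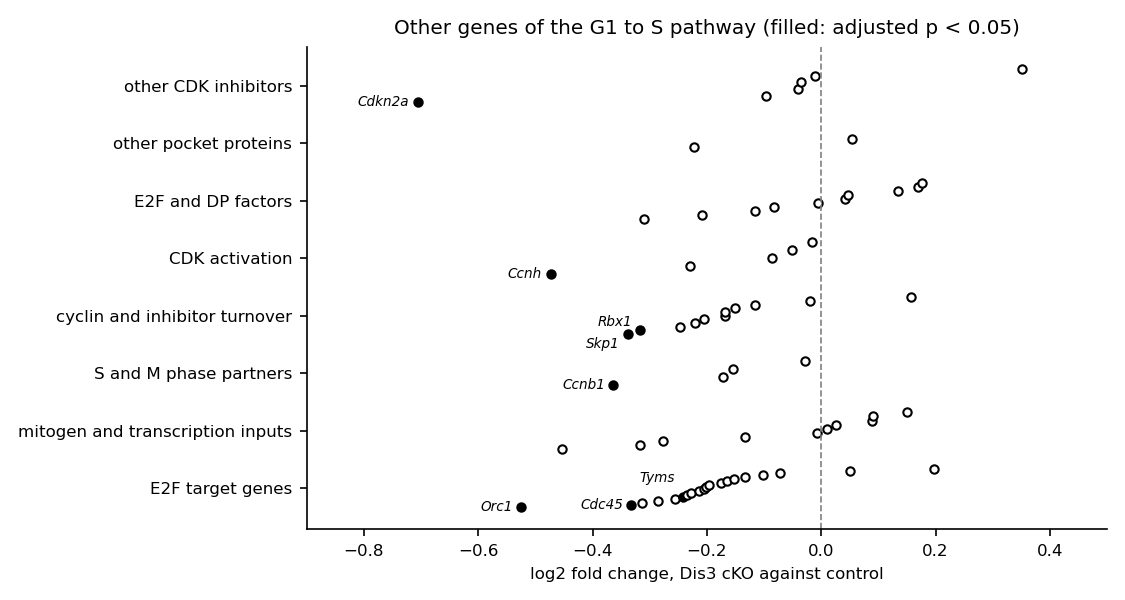
Log2 fold change of *Dis3* cKO against control (horizontal axis) for the 68 tested genes of the G1 to S pathway list by role (rows), filled and named at an adjusted p under 0.05 from edgeR. The 8 filled points all lie to the left of 0, from *Cdkn2a* at -0.71 to *Tyms* at -0.24.

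The pattern of *Ccnd1* over the 10 libraries was compared with those of 13116 genes that averaged 100 or more normalized counts, as the mean absolute difference of log2 values centred on each gene's mean. The most alike were *Trappc12* at 0.04, *Herc3* at 0.04 and *Wdr91* at 0.05 on the log2 scale. None of these was called different between the genotypes by edgeR. That follows from choosing genes alike to *Ccnd1*, which had a log2 fold change of 0.01, and is no separate result.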

How the data were processed

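Total RNA of whole P4 testes was made into strand-specific libraries with random and poly(T) priming. According to the methods and the submitters' processing notes, cutadapt trimming and HISAT2 alignment came before counting with featureCounts (1.6.4 in the file headers). The deposited tables hold the authors' raw counts, not normalized, over the exons of genes in the sense direction and over 3 kb before gene starts in the opposite direction (PROMPTs). The header of the gene table names GENCODE release 18 and the notes name GRCm38.p5, the build of the positions printed here, whereas the methods name a later build. Symbols were matched by gene identifier to GENCODE release 39, giving a name to 50129 genes with 99.0% of all counts. Promoter sequences are those of RefSeq (GRCm38.p6).

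Genes were kept by filterByExpr of edgeR 4.0.16 (min.count of 10, min.total.count of 15, R 4.3.3), scaled by TMM and compared between *Dis3* cKO and control with the quasi-likelihood test, two-sided, with Benjamini-Hochberg adjustment over all genes tested and a threshold of 0.05. A normalized count is the count divided by the effective library size (after TMM) as a multiple of the average one. PROMPTs averaging 3 or more counts over the libraries went through the same test, with sizes and TMM factors taken from the gene counts. Shares were compared by exact permutation tests with scipy 1.17.1, where 5 against 5 libraries can give no p below 0.00794. DESeq2 1.42.0, other normalizations and filters, a replicate block, the cluster of libraries as a term, each cluster alone and leaving out each library were alternatives. Depth ranged from 28538849 to 41104912 gene counts. The fit was tested on simulated data. Replicates were checked for libraries deposited more than once, and none were found (lowest chi-square per gene between libraries of one group 4.36).

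The members, the pathway list and the markers were chosen with earlier results of these data known. The text names all members, every pathway gene past the threshold (up to 10 in each direction), every PROMPT of a member and, for *Ccnd1*, the 3 genes with the most similar pattern. Marker lists are given as counts and medians, with summed levels for germ and Sertoli markers and values for some germ markers. The germ markers *Stra8* and *Mael*, and *E2f1*, *Ccna2* and *Mcm4*, were named after their values were seen. Exons of 8 members overlap a gene on the opposite strand, for example *Tspan31* at *Cdk4* (641 bases) and *Ints8* at *Ccne2* (609 bases), and none overlaps one on its own strand.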

Additional observations from a re-analysis of the deposited data

Results flagged for a closer look

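*Ccnd1* in *Dis3* cKO replicate 3 had 1538 normalized counts, far from the 1218 to 1288 of the other 4 *Dis3* cKO libraries. The PROMPT count of *Cdk4* in *Dis3* cKO replicate 2 was 28.5, far from the 11.2 to 15.9 of the others. These were 2 of 44 sets of 5 libraries examined, and chance gives about 1 in 20. In the pathway list, the log2 fold change differed between the clusters of libraries for 4 of 68 tested genes, by edgeR's test of the interaction of genotype and cluster (4.58% of all genes tested). These were *Orc1* (-0.66, as replicates 4 and 5 minus replicates 1 to 3), *E2f1* (-0.49), *Ccna2* (-0.37) and *Mcm4* (-0.38). What the clusters share is not given in the sources used here, and the cause was not tested.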

How the results depend on the processing

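No member's log2 fold change reversed under an alternative except those of *Ccnd1* (-0.015 with no filter on low counts, -0.14 in replicates 4 and 5 alone, -0.060 to 0.046 leaving out 1 library at a time) and *Rb1* (-0.086 in replicates 4 and 5 alone). With PROMPT library sizes the log2 fold changes of the PROMPTs of *Ccne2* (-0.31) and *Cdkn1b* (-0.071) reversed and 2 member PROMPTs were called higher, and with no filter on low counts 3 were. With the replicate number as a block, 1 member, *Cdk6* (edgeR adjusted p = 0.0190), was called higher, 15 pathway genes lower, and 1489 genes higher and 1337 lower. Same-numbered libraries of the genotypes correlated in their deviations from the group means at 0.0826 to 0.183, which does not establish a pairing, and *Dis3* cKO replicates 2 and 5 correlated best with control replicates of another number. With the cluster of libraries as a term, 2 members and 1 pathway gene were called higher, 19 pathway genes lower, and 1772 genes higher and 1669 lower. In replicates 1 to 3 alone, 0 members were called lower, and 2 pathway genes were higher and 3 lower. In replicates 4 and 5 alone, 2 members and 2 pathway genes were higher, 33 pathway genes lower, 2361 genes higher and 2360 lower, and the share of *Ccne1* was higher by 5.82 points. DESeq2 called 1 pathway gene higher. Leaving out 1 library at a time, 0 to 2 members were called lower, 0 to 1 pathway genes higher and 5 to 10 lower, 516 to 1173 genes higher and 366 to 806 lower, and 2 to 4 member PROMPTs higher. The difference in the *Ccnd3* share ran from -1.51 to -0.79 points and that in the *Cdk4* share from -3.73 to -2.56 points (-7.42 points without division by exon length), both passing without *Dis3* cKO replicate 5 (exact permutation test, adjusted p = 0.0397). The cause of these changes was not tested. Low PROMPT counts limit the regions of *Ccne1*, *Cdk4*, *Cdk6* and *Cdkn1b*.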
